A study of Mus musculus with 32 samples.

Results

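The effect of deleting Nudt7 on the liver transcriptome of male mice fed a low-fat control diet (CD) was measured by RNA-seq in 8 of the 32 liver libraries of the study, 4 from whole-body Nudt7-/- males (KO) and 4 from wild type littermates (WT). Libraries were chosen by their labels alone (male, CD, genotype), and expression was compared across all 12289 genes that reached 10 estimated counts in 4 or more of the 8. Mice were labelled C57BL/6J, received the CD (10% kcal from fat, 0% cholesterol) from 6 weeks of age and were killed between 17 and 20 weeks. The deletion, of exons 3 and 4, arose by CRISPR/Cas9 editing of FVB zygotes, and the line descends from a single mosaic founder backcrossed to C57BL/6J, so that near the edited gene the deletion and any FVB sequence kept around it cannot be told apart. Both genotypes shared diet, sex and age range, and whether a given liver was taken in the fed or the fasted state was not given for these libraries. To set the effect beside that in other mice of the line, KO and WT males on a Western diet (WD, 41% kcal from fat, 0.2% cholesterol) and KO and WT females on the CD were used, 4 livers in each group, on the same schedule and with the same deletion.

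NUDT7 is a peroxisomal Nudix hydrolase that cleaves CoA and acyl-CoA species, releasing phosphopantetheine or its acylated form, and it is abundant in liver. Peroxisomes shorten very long-chain and branched fatty acids and bile acid precursors as CoA thioesters, so the peroxisomal CoA pool is shared by fatty acid oxidation and bile acid conjugation. NUDT19 is a second peroxisomal enzyme of the same activity and NUDT8 a mitochondrial one. Loss of NUDT7 therefore removes a CoA-degrading enzyme while related enzymes in the liver remain.

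The edited region is shown here because the Nudt7 transcripts differ in how much of it they hold. Nudt7 lies on the plus strand of chromosome 8 (GRCm38, chr8:114133557-114154739). In its longest annotated transcript, ENSMUST00000073521, the coding exon 3 spans chr8:114147895-114148053, which is 159 nt or 53 whole codons. Exon 4 spans chr8:114151654-114154739 and carries the last 363 coding nt, stop included, and a long untranslated end. The sequence of exon 3, assembled from the GENCODE vM21 transcript and read on the plus strand, follows with the 24 nt that encode the core of the Nudix motif in capitals, and below it the designed guides with the protospacer adjacent motif in capitals.
Nudt7 exon 3: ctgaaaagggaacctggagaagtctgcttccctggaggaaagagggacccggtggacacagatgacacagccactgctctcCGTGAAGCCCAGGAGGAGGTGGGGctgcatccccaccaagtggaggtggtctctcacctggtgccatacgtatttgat
5g guide: tcccaacccaacatagtggaAGG
3g guide: tggaattactccctaaccccAGG
The Nudix core, which holds the glutamates that bind the catalytic metal, is therefore within the deleted DNA. Of 141767 vM21 transcripts, 1 contained the 3g guide, namely ENSMUST00000073521, on the minus strand at chr8:114152408-114152430 in exon 4, downstream of the stop codon. The 5g guide was in none of them and was not placed. Cas9 cutting 3 bases from the motif at the 3g site would leave 2326 nt of exon 4 after the cut, all of them in ENSMUST00000073521. ENSMUST00000109109 has a long first exon that gives it 1977 nt before exon 3, against 298 nt in ENSMUST00000073521, 214 nt in ENSMUST00000147605, 213 nt in ENSMUST00000134593 and 127 nt in ENSMUST00000066514. These 5 transcripts make up the gene in the annotation used.

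Nudt7 was lower in every KO than in every WT liver. In CPM, estimated counts scaled by library total and TMM factor, it stood at 172, 69.2, 237 and 57.3 CPM in KO livers, against 329.8, 325, 565 and 614 CPM in WT livers. The means were 134 ± 85.9 CPM in KO and 458 ± 153 CPM in WT livers (SD, n = 4 each). The exact two-sided permutation test over the 8 libraries gave p = 0.0286, the smallest that 4 against 4 allows. In TPM, which divides by transcript length, the gene stood at 60.2 ± 40.2 in KO and 589 ± 176 in WT livers. With the quasi-likelihood test of edgeR the log2 fold change of the gene sum was −1.77 (standard error 0.52, adjusted p = 0.495), short of the threshold of 0.05. With DESeq2 and length offsets, the procedure the study used, it was −3.40 (standard error 0.53, adjusted p = 1.23e-06).

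The counts left in KO livers were assigned to only 2 of the 5 transcripts. All 5 hold exon 3 in the annotation, and that exon is deleted. Counts assigned to a transcript in KO livers therefore do not show that it was present whole. ENSMUST00000066514 had 0 estimated counts in all 4 KO livers, against 1149, 1515, 2014 and 2141 in WT livers. ENSMUST00000147605 had 0 in all 4 KO livers, against 1493, 1696, 2596 and 2638 in WT livers. ENSMUST00000134593 likewise had 0 in all 4 KO livers, against 148, 109.7, 176 and 201 in WT livers. These 3 transcripts, the shortest of the 5 at 707 to 966 nt, had no counts in any KO library, although they hold 127 to 214 nt before exon 3, and the reason was not tested. ENSMUST00000073521 has 2326 nt beyond the 3g cut. It was assigned 1003, 473, 1360.3 and 269 estimated counts in KO livers, against 648, 699, 1059 and 905 in WT livers. ENSMUST00000109109 has 1977 nt before exon 3. It was assigned 1362, 412, 1663 and 308 in KO livers, against 574, 669.8, 889.9 and 1031 in WT livers. For both, KO and WT livers overlapped (exact permutation p = 0.857 for ENSMUST00000073521 and 0.686 for ENSMUST00000109109), and KO replicates 1 and 3 were the highest KO livers. The gene sum in KO livers therefore consisted of counts assigned to these 2 transcripts.

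**Figure D1:**
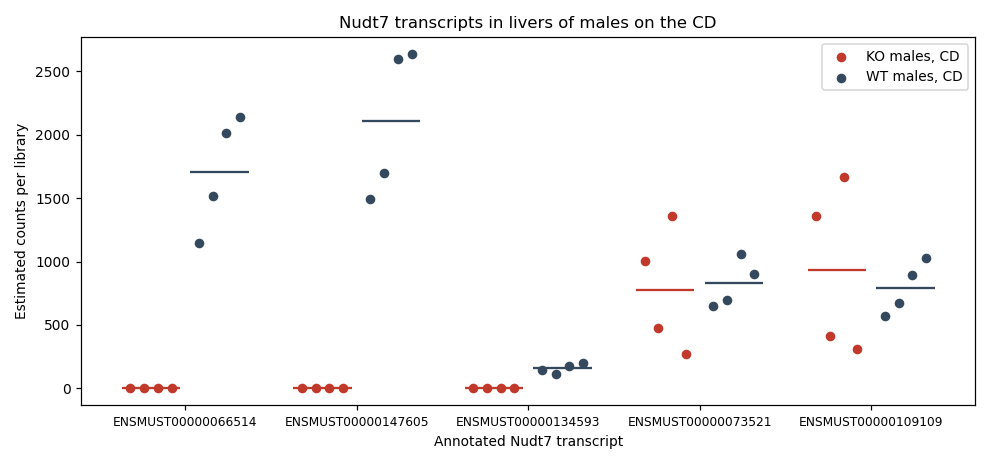
Estimated counts per library (vertical axis) of the 5 annotated Nudt7 transcripts (horizontal axis) in males on the CD, KO in red on the left and WT in dark blue on the right of each pair. Points are libraries and lines are group means, and 3 transcripts are at 0 in all 4 KO livers while ENSMUST00000073521 and ENSMUST00000109109 overlap between the genotypes.

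The other CoA-degrading hydrolases did not pass the test. Nudt8 stood at 5.66, 8.29, 5.41 and 5.76 CPM in KO livers, against 7.48, 5.54, 9.06 and 8.70 CPM in WT livers, and edgeR gave −0.29 (standard error 0.19, adjusted p = 0.632). Nudt19 stood at 36.9, 38.6, 30.4 and 30.4 CPM in KO livers, against 36.5, 34, 41.96 and 36.9 CPM in WT livers, with −0.13 (standard error 0.11, adjusted p = 0.702). The genotypes overlapped for both. Fitm2, the gene of FIT2, an endoplasmic reticulum protein of lipid droplet formation with acyl-CoA diphosphatase activity, stood at 34.2, 31.99, 40.2 and 30.5 CPM in KO livers, against 40.4, 32.5, 35.1 and 29.04 CPM in WT livers, with −0.00 (standard error 0.12, adjusted p = 0.999). Nnt, the mitochondrial transhydrogenase gene that carries a deletion in C57BL/6J but not in many other strains, stood at 32.01, 46.9, 39.1 and 53.1 CPM in KO livers, against 44.3, 35.8, 39.9 and 38.99 CPM in WT livers, with 0.11 (standard error 0.14, adjusted p = 0.826). A second Nnt gene model of the annotation, ENSMUSG00000116207, had 8.24 CPM in WT replicate 2 and was at 0 in the other 7 libraries, so that 1 library stood apart from the rest at this locus.

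The 8 libraries held 10189959 to 13675524 estimated counts in KO and 11564838 to 14089282 in WT livers. Hepatocyte marker genes summed to 78368 to 107447 CPM in KO and 84585 to 97552 CPM in WT livers, and 4 of 4 Y-linked label-check genes were expressed in all 8. Acinar markers, which stand high in some female libraries of the study, summed to 10.7 to 28.4 CPM in KO livers and 12.2 to 27.1 CPM in WT livers over 16 genes, with Clps, Pnliprp1, Reg1 and Try5 at 0 in all 8 libraries. Kupffer cell and macrophage markers summed to 370.4 to 458 CPM in KO and 311 to 512 CPM in WT livers, and 10 of 11 had a log2 fold change above 0, none of which passed. Their part in the results was not tested. In bulk liver, fewer cells of a type and less RNA per cell cannot be told apart. Log2 fold changes also correlated with transcript length across the 12289 genes (Spearman 0.336). Within libraries this trend, as the correlation of a gene's deviation from its mean over the 8 libraries with its effective length, was 0.307, −0.318, 0.383 and 0.184 in KO replicates 1 to 4 and 0.0817, 0.121, −0.343 and −0.387 in WT replicates 1 to 4. KO replicate 2 thus went against the other KO livers.

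By edgeR, 1 of 12289 genes (0.00814%) had an adjusted p under 0.05, Cenpm, and it was lower in KO livers. An unadjusted p under 0.05 was found for 1197 genes (9.74%), 637 higher (5.18%) and 560 lower (4.56%), and the 2 groups did not overlap for 589 genes (4.79%), 310 of them higher in KO livers (2.52%) and 279 lower (2.27%). A log2 fold change above 1 was fitted for 52 genes and one under −1 for 46. DESeq2 with length offsets called 18 genes (0.146%), of which 6 were higher and 12 lower in KO livers, and Nudt7 was 1 of them. Of those 18, 15 had separate groups and 17 an unadjusted edgeR p under 0.05. The number of calls therefore depended on the tool, and edgeR with the same length offsets called 0 genes with 887 at an unadjusted p under 0.05.

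Cenpm, on chromosome 15 (chr15:82233779-82244748), encodes a subunit of the constitutive centromere network at the kinetochore of dividing cells. It stood at 0.944, 1.33, 0.941 and 0.993 CPM in KO livers, against 5.34, 3.25, 3.78 and 6.13 CPM in WT livers, and every KO liver lay below every WT liver. Its mean level was low, 1.58 on the log2 CPM scale, so the KO values rest on few counts. The log2 fold change was −2.12 (standard error 0.26, adjusted p = 0.0375), and with DESeq2 and length offsets −1.78 (standard error 0.31, adjusted p = 6.91e-05). The call was lost when KO replicate 1 (adjusted p = 0.121), KO replicate 3 (0.227), KO replicate 4 (0.0803), WT replicate 1 (0.195) or WT replicate 4 (0.129) was left out. It was also lost with edgeR and length offsets (0.0672) and in the model of all 32 libraries (0.473). In males on the WD it was −1.69 (standard error 0.51, unadjusted p = 0.00722), and in females on the CD −0.32 (standard error 0.87, unadjusted p = 0.723).

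Of the 18 genes that DESeq2 called, 3 besides Nudt7 lay within 20 Mb of it on chromosome 8, Bco1 and Ciapin1 higher and Gcsh lower. Bco1, 2.96 Mb from the start of Nudt7 (chr8:117095854-117133720), encodes the oxygenase that splits β-carotene into retinal. It stood at 16.7, 12.4, 15.1 and 13.4 CPM in KO livers, against 7.15, 8.45, 7.22 and 7.11 CPM in WT livers, with no overlap. Its log2 fold change was 0.94 (standard error 0.13, adjusted p = 0.0578) with edgeR and 0.91 (standard error 0.17, adjusted p = 0.000433) with DESeq2 and length offsets, and the model of all 32 libraries called it (adjusted p = 0.000491). It overlaps the gene model Gm20694 on the same strand, so some counts cannot be assigned to either with certainty.

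Gcsh, 2.85 Mb away (chr8:116981810-116993537), encodes the H protein that carries the aminomethyl group in the glycine cleavage system. It stood at 54.01, 53.2, 50.5 and 54.3 CPM in KO livers, against 67.8, 64.1, 83.7 and 82.2 CPM in WT livers, again without overlap. The log2 fold change was −0.49 (standard error 0.10, adjusted p = 0.349), and −0.50 (standard error 0.12, adjusted p = 0.0374) with DESeq2 and length offsets. Ciapin1, 19.3 Mb to the other side (chr8:94819804-94838358), encodes anamorsin, a factor of cytosolic iron-sulfur protein assembly. It stood at 26.6, 39.7, 30.2 and 28.7 CPM in KO livers, against 20.1, 20.4, 18.5 and 19.8 CPM in WT livers, every KO liver above every WT liver, with 0.67 (standard error 0.12, adjusted p = 0.246) and, with DESeq2 and length offsets, 0.66 (standard error 0.16, adjusted p = 0.0248). The model of all 32 libraries called Ciapin1 too (adjusted p = 0.0492), and the gene overlaps Coq9 and Gm7418 in the annotation.

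The same 3 genes were measured in mice that share no library with the males on the CD. With the scaling over all 32 libraries, Bco1 had 13.6, 12.97, 11.2 and 11.2 CPM in KO and 7.17, 5.55, 9.03 and 7.65 CPM in WT males on the WD, and 15.6, 15.3, 12.9 and 12.3 CPM in KO and 8.99, 12.04, 9.26 and 12.2 CPM in WT females on the CD. The groups stayed apart in both, with log2 fold changes of 0.75 (standard error 0.16, unadjusted p = 0.000466) in males on the WD and 0.40 (standard error 0.15, unadjusted p = 0.0213) in females on the CD. Gcsh had 44.6, 53.6, 48.3 and 46.9 CPM in KO and 82.9, 85.6, 68.9 and 54.01 CPM in WT males on the WD, and 59.3, 60.5, 59.8 and 60.7 CPM in KO and 91.99, 97.2, 78.5 and 74.3 CPM in WT females on the CD. KO livers were again all below WT livers, with −0.58 (standard error 0.13, unadjusted p = 0.0012) in males on the WD and −0.51 (standard error 0.11, unadjusted p = 0.000984) in females on the CD. Ciapin1 had 28.6, 31.5, 29.3 and 32.3 CPM in KO and 20.8, 15.9, 16.1 and 17.9 CPM in WT males on the WD, and 22.9, 25.5, 28.1 and 24.8 CPM in KO and 16, 24.4, 17.8 and 19.7 CPM in WT females on the CD. The groups were separate in males on the WD, 0.80 (standard error 0.10, unadjusted p = 7.64e-06), and overlapped in females on the CD, 0.38 (standard error 0.14, unadjusted p = 0.0192). In these mice 9.69% of genes in males on the WD and 6.87% in females on the CD had an unadjusted p under 0.05. Of 12016 genes tested in all 3 sets of mice, 5 (0.0416%) had the same direction and an unadjusted p under 0.05 in each, Nudt7, Bco1, Gcsh, Ciapin1 and Mtfp1. Mtfp1, on chromosome 11, encodes a mitochondrial fission process protein and had −0.27 in males on the CD, −0.46 (standard error 0.13, unadjusted p = 0.00438) in males on the WD and −0.43 (standard error 0.15, unadjusted p = 0.0147) in females on the CD. It was named after its values were seen.

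Around Nudt7 the share of genes with a low unadjusted p and the share called by DESeq2 with length offsets were counted separately. Within 20 Mb, and without Nudt7, 236 genes were tested and 24 (10.2%) had an unadjusted p under 0.05, against 9.73% of all 12288 genes other than Nudt7. Of these 24, 10 were higher and 14 lower. DESeq2 with length offsets called 3 of the 236, against 17 of all 12288 genes other than Nudt7. In the nearest 5 Mb, 7 of 52 genes (13.5%) had an unadjusted p under 0.05. DESeq2 with length offsets called 2 of the 52. Maf, a leucine zipper transcription factor gene 1.55 Mb away, stood at 66.4, 59.04, 64.2 and 68.7 CPM in KO livers, against 47.3, 56.2, 44.6 and 45.2 CPM in WT livers, with 0.42 (standard error 0.10, adjusted p = 0.437). Car5a, a mitochondrial carbonic anhydrase gene 7.78 Mb away, stood at 58.7, 57.5, 56.2 and 52.8 CPM in KO livers, against 70.03, 66.1, 79.7 and 71.5 CPM in WT livers, with −0.35 (standard error 0.09, adjusted p = 0.495). Both had separate groups and neither passed, and Car5a overlaps the gene model Gm20388. Cbfb, the gene of the partner subunit of RUNX factors, stood at 17.6, 14.9, 17.3 and 18.3 CPM in KO livers, against 10.7, 14.3, 14.02 and 12.5 CPM in WT livers, with 0.40 (standard error 0.12, adjusted p = 0.495). Phlpp2, a protein phosphatase gene, stood at 7.77, 6.65, 6.59 and 6.75 CPM in KO livers, against 4.85, 4.78, 5.46 and 5.33 CPM in WT livers, with 0.45 (standard error 0.13, adjusted p = 0.495). Zfp276, a zinc finger gene, stood at 13.2, 13.6, 16.2 and 17.8 CPM in KO livers, against 20.1, 21.5, 18.97 and 18.3 CPM in WT livers, with −0.38 (standard error 0.12, adjusted p = 0.495). These 3 were also separate between the genotypes, in different directions.

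**Figure D2:**
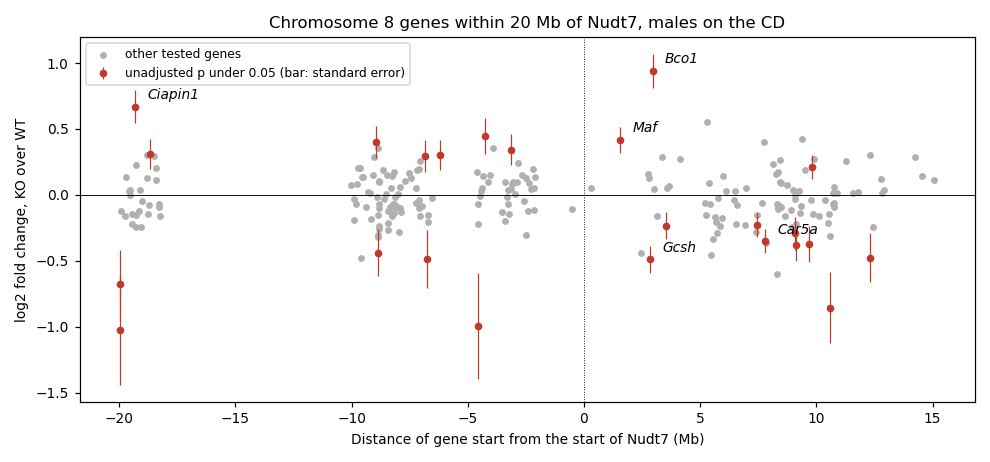
Log2 fold change of KO over WT in males on the CD (vertical axis) for the genes within 20 Mb of Nudt7 that were tested, against the distance of their start from that of Nudt7 in Mb (horizontal axis). Red points have an unadjusted p under 0.05 with the standard error as a bar, and grey points do not. Bco1 at 0.94, Ciapin1 at 0.67, Gcsh at −0.49, Maf at 0.42 and Car5a at −0.35 are labelled.

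Elsewhere in the genome, DESeq2 with length offsets called 4 genes higher. Id3, an inhibitor of basic helix-loop-helix factors that BMP signaling induces, stood at 57.2, 38.3, 48 and 45.6 CPM in KO livers, against 28.4, 24.1, 30.3 and 28.6 CPM in WT livers. The groups were separate, with 0.76 (standard error 0.12, adjusted p = 0.137) from edgeR and 0.85 (standard error 0.16, adjusted p = 0.000688) from DESeq2. Clec2h, of a family of C-type lectin-like ligands of natural killer receptors, stood at 8.28, 4.46, 5.49 and 3.58 CPM in KO livers, against 1.23, 1.18, 1.76 and 2.13 CPM in WT livers, separate as well, with 1.81 (standard error 0.29, adjusted p = 0.137) and 1.80 (standard error 0.38, adjusted p = 0.00371). Adgrf1, an adhesion G protein-coupled receptor, stood at 12.2, 9.62, 17.02 and 12.6 CPM in KO livers, against 1.89, 5.12, 7.55 and 4.80 CPM in WT livers. All 4 KO livers were above all WT livers, with 1.41 (standard error 0.33, adjusted p = 0.495) and 1.40 (standard error 0.33, adjusted p = 0.0235). Taf2, a subunit of the general factor TFIID, is named here to complete the list. It stood at 20.5, 17.99, 19.2 and 18.7 CPM in KO livers, against 16.03, 16.8, 14.5 and 13.8 CPM in WT livers. The log2 fold change was 0.32 (standard error 0.10, adjusted p = 0.495) from edgeR. DESeq2 with length offsets gave 0.52 (standard error 0.13, adjusted p = 0.0494), and DESeq2 on gene sums 0.32 (standard error 0.13, adjusted p = 0.378).

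The genes called lower included regulators and metabolic enzymes. Rgs16, an activator of Gα GTPases that ends signaling from G protein-coupled receptors, stood at 41.2, 29.2, 7.53 and 12.02 CPM in KO livers, against 157, 124, 103 and 141 CPM in WT livers. This was among the larger falls with separate groups, −2.54 (standard error 0.53, adjusted p = 0.495) from edgeR and −2.52 (standard error 0.54, adjusted p = 0.00401) from DESeq2, and KO livers ranged widely. Sbk1, a serine/threonine kinase, stood at 17.9, 13.8, 11.5 and 13.8 CPM in KO livers, against 47.1, 31.4, 22.8 and 35.7 CPM in WT livers, with −1.26 (standard error 0.21, adjusted p = 0.242) and −1.24 (standard error 0.25, adjusted p = 0.00121). Arg1, the arginase of the urea cycle, stood at 910.4, 840.4, 876 and 793 CPM in KO livers, against 1031, 1140.0, 1136 and 1039 CPM in WT livers. Its groups were separate although the shift was small, −0.35 (standard error 0.11, adjusted p = 0.495) and −0.39 (standard error 0.09, adjusted p = 0.00935). Fabp4, a fatty acid-binding protein of adipocytes, macrophages and capillaries, stood at 6.03, 5.87, 8.0 and 6.26 CPM in KO livers, against 9.04, 10.1, 11.4 and 12.4 CPM in WT livers, with −0.71 (standard error 0.15, adjusted p = 0.339) and −0.95 (standard error 0.20, adjusted p = 0.00401).

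A further 5 lower calls differed in how far the livers were apart. Tcim, on chromosome 8 but over 40 Mb from Nudt7, stood at 17.3, 24.9, 26.1 and 21.7 CPM in KO livers, against 33.5, 35.4, 32.7 and 34.5 CPM in WT livers, separate, with −0.60 (standard error 0.12, adjusted p = 0.339) and −0.66 (standard error 0.15, adjusted p = 0.0123). Bri3, a small membrane protein gene, stood at 31.1, 36.8, 26.6 and 24.04 CPM in KO livers, against 43.6, 45.6, 45.2 and 49.3 CPM in WT livers, separate, with −0.63 (standard error 0.12, adjusted p = 0.333) and −0.53 (standard error 0.13, adjusted p = 0.0367), and it overlaps Baiap2l1 in the annotation. Serpinb1a, an inhibitor of neutrophil serine proteases, stood at 1.09, 2.03, 2.27 and 1.99 CPM in KO livers, against 8.71, 2.15, 6.13 and 3.20 CPM in WT livers. Its groups overlapped by 1 WT library, with −1.45 (standard error 0.44, adjusted p = 0.495) and −1.77 (standard error 0.42, adjusted p = 0.0254). Atg2a, a lipid transfer protein of autophagosome growth, stood at 38.8, 34.8, 35.7 and 33.6 CPM in KO livers, against 39.6, 41.3, 38.2 and 35.3 CPM in WT livers. These groups overlapped, and edgeR without length offsets gave −0.11 (standard error 0.09, adjusted p = 0.679) where DESeq2 with them gave −0.54 (standard error 0.13, adjusted p = 0.0367). Cyp2b9, a female-predominant cytochrome P450, stood at 0.145, 0.782, 0.157 and 1.99 CPM in KO livers, against 174, 19.9, 3.27 and 1.15 CPM in WT livers. WT replicate 1 was far above all others and the groups overlapped, with −6.13 (standard error 2.07, adjusted p = 0.495) and −6.03 (standard error 1.49, adjusted p = 0.0374).

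**Figure D3:**
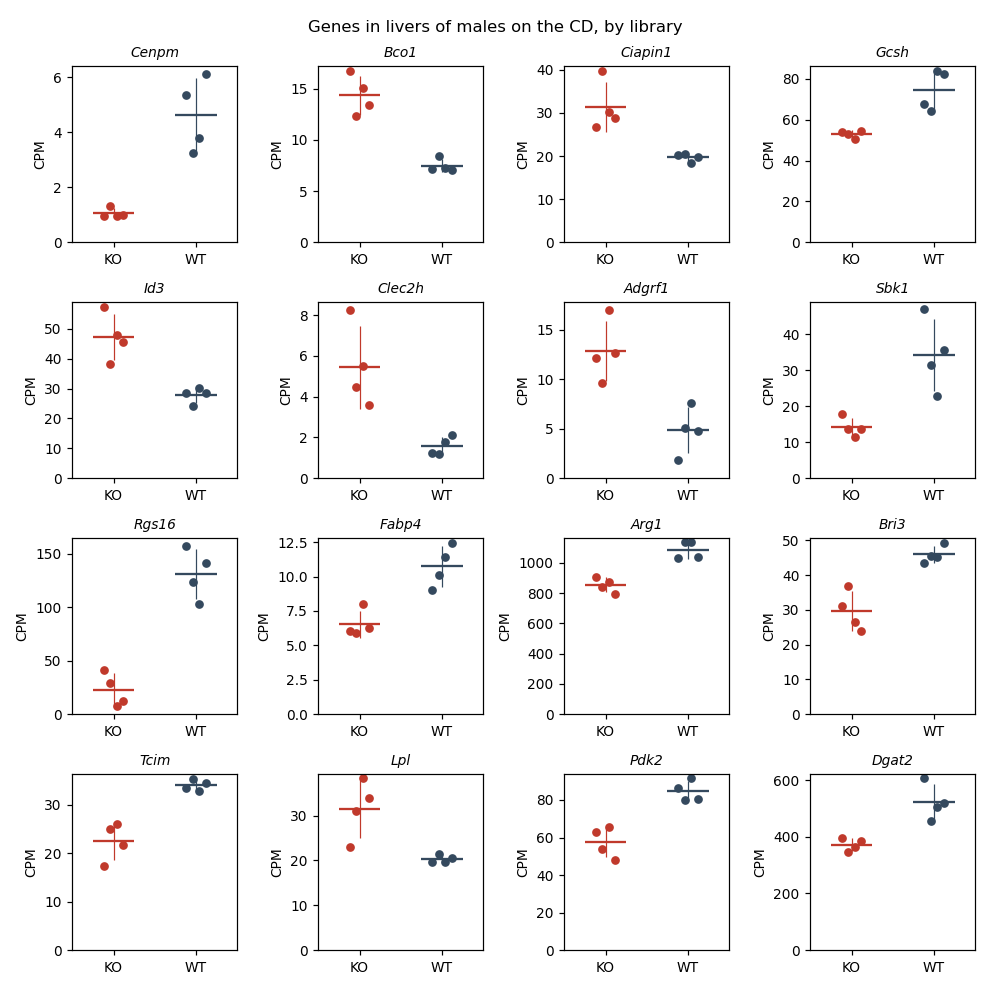
CPM of 16 genes in each library of males on the CD, KO in red on the left and WT in dark blue on the right of each panel, with axes that start at 0. Points are libraries, horizontal lines are means and vertical lines 1 SD (n = 4 each). Only genes with separate groups are shown, which 4.79% of all genes had. Lpl, Pdk2 and Dgat2 were called by neither edgeR nor DESeq2 with length offsets. The DESeq2 calls whose groups overlapped, Serpinb1a, Atg2a and Cyp2b9, are left out. The calls Nudt7 and Taf2, with separate groups, are not shown either.

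Genes with separate groups and the smallest unadjusted p that neither tool with its main settings called showed shifts of under 2-fold, apart from Grm8. Grm8, a metabotropic glutamate receptor, stood at 4.57, 2.89, 4.16 and 2.38 CPM in KO livers, against 1.07, 0.969, 1.26 and 1.42 CPM in WT livers, with 1.58 (standard error 0.26, adjusted p = 0.137). Tmed5, a cargo receptor of early secretory traffic, stood at 105, 90.7, 107 and 94.6 CPM in KO livers, against 58.8, 77.6, 59.8 and 61.99 CPM in WT livers, with 0.62 (standard error 0.11, adjusted p = 0.228). Ccdc149 stood at 5.08, 4.30, 4.24 and 3.58 CPM in KO livers, against 2.38, 2.15, 2.43 and 2.49 CPM in WT livers, with 0.87 (standard error 0.18, adjusted p = 0.333). All were higher in each KO liver and passed neither edgeR nor DESeq2 with length offsets. Abhd17b, a protein depalmitoylase, stood at 19.5, 18.8, 21.6 and 22.5 CPM in KO livers, against 13.7, 15.9, 13.7 and 15.01 CPM in WT livers, with 0.50 (standard error 0.10, adjusted p = 0.339). CT030661.1 stood at 11.2, 12.7, 12.8 and 12.3 CPM in KO livers, against 8.38, 9.28, 7.89 and 8.17 CPM in WT livers, with 0.53 (standard error 0.11, adjusted p = 0.339). Myef2, a nucleic acid-binding repressor first known from myelin genes, stood at 17.4, 14.8, 15.8 and 17.2 CPM in KO livers, against 11.8, 12.3, 11.2 and 11.5 CPM in WT livers, with 0.48 (standard error 0.10, adjusted p = 0.349). These were also higher in each KO liver. With DESeq2 and length offsets the log2 fold change was 0.30 (standard error 0.11, adjusted p = 0.392) for Tmed5, 0.28 (standard error 0.13, adjusted p = 0.633) for Abhd17b and 0.34 (standard error 0.16, adjusted p = 0.635) for CT030661.1, nearer to 0 than in edgeR. DESeq2 on gene sums called Tmed5 (adjusted p = 0.00137) and Abhd17b (0.0472).

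On the lower side, Pdk2, a kinase that inhibits pyruvate dehydrogenase, stood at 62.9, 54.1, 65.5 and 48.1 CPM in KO livers, against 86.5, 80.2, 91.6 and 80.7 CPM in WT livers, with −0.55 (standard error 0.11, adjusted p = 0.333). Uck1, a uridine-cytidine kinase, stood at 29.8, 22.8, 25.02 and 21.7 CPM in KO livers, against 42.3, 33.7, 35.5 and 37.04 CPM in WT livers, with −0.58 (standard error 0.12, adjusted p = 0.333). Ank, a membrane protein of pyrophosphate and ATP release, stood at 38.8, 28.5, 35.9 and 31.6 CPM in KO livers, against 46.2, 49.4, 44.5 and 50.6 CPM in WT livers, with −0.50 (standard error 0.11, adjusted p = 0.349). Slc37a4, the glucose 6-phosphate transporter that feeds glucose 6-phosphatase, stood at 129, 127, 116 and 109.9 CPM in KO livers, against 164, 164, 189 and 148 CPM in WT livers, with −0.47 (standard error 0.10, adjusted p = 0.356). All 4 were lower in each KO liver than in each WT liver. DESeq2 on gene sums called Pdk2 (adjusted p = 0.00728), Slc37a4 (0.0109), Uck1 (0.0159) and Ank (0.0297), while DESeq2 with length offsets called none of the 4 (0.0729 to 0.254). Tmed5, Uck1, Myef2 and Ank each overlap another annotated gene (Mtf2, Pomt1, Slc24a5 and Otulin, in that order).

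The pathways nearest to CoA itself showed small differences, and no member of the lists described from here on passed edgeR over all genes. Of 13 genes of CoA synthesis and pantetheine recycling, 8 were below 0 and the median log2 fold change was −0.10, against 0.00 over all 12289 genes. Vnn3 (−0.33, unadjusted p = 0.0126) and Vnn1 (−0.55, 0.106) encode pantetheinases, and Slc25a42 (−0.26, 0.0217) the mitochondrial CoA transporter. Pank1, the main liver pantothenate kinase, had −0.10. Of 12 measured acyl-CoA thioesterases, which release CoA from acyl-CoA, 11 were below 0 with a median of −0.16. Acot11 stood at 10.5, 8.52, 12.1 and 5.56 CPM in KO livers, against 20.5, 14.6, 12.8 and 16.3 CPM in WT livers, with −0.79 (standard error 0.22, adjusted p = 0.495), and was the only 1 of the 12 with an unadjusted p under 0.05. Over all genes, 9.74% had such a p. The median of the thioesterases moved to −0.01 without WT replicate 1.

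Peroxisomal fatty acid oxidation, a pathway that shares its compartment with NUDT7, had 12 of 22 members above 0 and 10 below, with a median of 0.01. The summed level of its members was 12642 to 13543 CPM in KO and 11747 to 12318 CPM in WT livers, ranges that do not overlap, and it was not tested. The 2 groups also did not overlap for 4.79% of all genes, and 43 lists were summed. A sum weighs abundant members most, so it does not show a shift shared by the members. Crot, which exports shortened acyl groups as carnitine esters, stood at 465, 668, 505 and 695 CPM in KO livers, against 409.8, 345, 472 and 411 CPM in WT livers, with 0.51 (standard error 0.15, adjusted p = 0.495). KO replicates 2 and 4 were highest, and KO replicate 1 overlapped WT livers. Eci2, an enoyl-CoA isomerase, had 0.25 (standard error 0.09, adjusted p = 0.495) with separate groups, and Ech1, which acts on dienoyl-CoA, −0.37 (standard error 0.11, adjusted p = 0.495). Peroxisome assembly genes had 14 of 18 below 0 (median −0.09), and 20 genes of mitochondrial fatty acid oxidation and ketogenesis had a median of −0.04, with 14 below 0.

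Sterol and fatty acid synthesis genes were mostly below 0 and uneven between livers. All 20 cholesterol synthesis genes were below 0 (median −0.39), where 50.6% of all genes were above 0. Of the 20, 3 had an unadjusted p under 0.05, against 4.56% of all genes lower at that p. Mvk, mevalonate kinase, stood at 14.2, 14.7, 12.9 and 7.65 CPM in KO livers, against 19.5, 14.8, 16.6 and 17.7 CPM in WT livers. The groups were separate, with −0.46 (standard error 0.18, adjusted p = 0.495). Msmo1 and Tm7sf2, of the later steps to cholesterol, had −0.53 (standard error 0.22, adjusted p = 0.503) for Msmo1 and −0.40 (standard error 0.17, adjusted p = 0.497) for Tm7sf2. The summed level was 2317 to 4645 CPM in KO and 3325 to 5060.5 CPM in WT livers, so the genotypes overlapped. As the median deviation of its members from their mean over the 8 livers on the log2 scale, the list stood at 0.36, −0.09, −0.13 and −0.93 in KO replicates 1 to 4, and 0.54, 0.19, −0.15 and 0.29 in WT replicates 1 to 4. KO replicate 4 was far below the others.

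Fatty acid synthesis genes had 14 of 17 members below 0 and a median of −0.33. Of the 17, 0 had an unadjusted p under 0.05, against 9.74% of all genes. By the same median deviation, the list stood at 0.59, −0.13, −0.41 and −0.85 in KO replicates 1 to 4. In WT replicates 1 to 4 it stood at 0.48, 0.03, −0.14 and 0.48. The genotypes overlapped, and KO replicate 1 was the highest liver. Fasn, fatty acid synthase, stood at 3238, 1947, 1294 and 1299 CPM in KO livers, against 3734, 2275, 1884 and 3051 CPM in WT livers, with −0.49 (standard error 0.33, adjusted p = 0.633), and the groups overlapped. Thrsp, a lipogenic regulator, had −0.79 (standard error 0.48, adjusted p = 0.614), with its lowest value of 135 CPM in KO replicate 4. Of 10 triacylglycerol synthesis genes, 9 were below 0. Dgat2, which makes triacylglycerol in the last step, stood at 397, 346, 362 and 385 CPM in KO livers, against 608, 457, 504 and 520.3 CPM in WT livers. Every KO liver was below every WT liver, with −0.49 (standard error 0.12, adjusted p = 0.432). DESeq2 on gene sums called Dgat2 (adjusted p = 0.00735), and DESeq2 with length offsets did not (0.109). Agpat2, an earlier acyltransferase, had −0.42 (standard error 0.12, adjusted p = 0.495). Lpl, lipoprotein lipase, stood at 22.9, 31.05, 38.3 and 33.9 CPM in KO livers, against 19.6, 21.5, 19.7 and 20.6 CPM in WT livers. It was higher in each KO liver, with 0.63 (standard error 0.14, adjusted p = 0.356). DESeq2 on gene sums called Lpl (adjusted p = 0.0357), and DESeq2 with length offsets did not (0.214).

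In amino acid and glucose metabolism, the 12 glycine and one-carbon genes and the 12 genes of gluconeogenesis and glucose export each held 2 that were lower in every KO liver than in every WT liver, against 2.27% of all genes. Of the glycine and one-carbon genes, 10 were below 0 and 3 had an unadjusted p under 0.05 and were lower, Gcsh, Shmt1 and Gnmt, against 4.56% of all genes. Gcsh is a DESeq2 call described above, and list members were chosen with earlier results of these data known. Nothing is therefore read from these shares. Shmt1, the cytosolic serine hydroxymethyltransferase, stood at 229, 203, 186 and 186 CPM in KO livers, against 271, 244, 269 and 286 CPM in WT livers. It was separate, with −0.41 (standard error 0.11, adjusted p = 0.495). DESeq2 on gene sums called Shmt1 (adjusted p = 0.0294), and DESeq2 with length offsets did not (0.246). Gnmt, which consumes S-adenosylmethionine, stood at 1145, 1539.8, 1005 and 942 CPM in KO livers, against 1481, 1285, 2244 and 1566 CPM in WT livers, with −0.51 (standard error 0.20, adjusted p = 0.495). KO replicate 2 overlapped WT livers here. Of 12 gluconeogenesis and glucose export genes, 9 were below 0 (median −0.20), Slc37a4 among them, and G6pc, glucose 6-phosphatase, had −0.38 (standard error 0.18, adjusted p = 0.526).

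For bile acid synthesis, 10 of 13 genes were below 0 with a median of −0.14. Cyp39a1, a 24-hydroxycholesterol hydroxylase, stood at 30.7, 35.9, 28.7 and 45.2 CPM in KO livers, against 62.4, 74.8, 62.02 and 36.1 CPM in WT livers, with −0.75 (standard error 0.22, adjusted p = 0.495). Cyp8b1, which sets the share of cholic acid, stood at 328, 166, 293 and 195 CPM in KO livers, against 505, 488, 279 and 375 CPM in WT livers, with −0.75 (standard error 0.25, adjusted p = 0.495). Both overlapped between genotypes. Cyp7a1, the rate-limiting enzyme of bile acid synthesis, had −0.83 (standard error 0.43, adjusted p = 0.573), and Baat, which conjugates bile acids in peroxisomes, −0.14 (unadjusted p = 0.279). Of 14 transport and FXR genes, 8 were above 0 and 6 below.

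Of 13 genes of retinoid metabolism, Bco1 included, 11 were below 0 and the median was −0.22. Lrat, which esterifies retinol in stellate cells, stood at 15.2, 22.5, 19.1 and 17.1 CPM in KO livers, against 28.1, 26.3, 23.5 and 30.1 CPM in WT livers. Every KO liver was below every WT liver, with −0.55 (standard error 0.13, adjusted p = 0.432). Bco2, the mitochondrial carotenoid oxygenase, had −0.21 (standard error 0.09, adjusted p = 0.506). Among stellate and fibroblast markers, a list that also holds Lrat, 6 of 11 were above 0 and 5 below, with sums of 464 to 514 CPM in KO and 468 to 518 CPM in WT livers.

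Genes of the BMP response included further ID factors. Id2 stood at 144, 144, 124 and 150.2 CPM in KO livers, against 100.7, 106, 99.4 and 111 CPM in WT livers. It was higher in every KO liver, with 0.43 (standard error 0.09, adjusted p = 0.356). DESeq2 on gene sums called Id2 (adjusted p = 0.0109), and DESeq2 with length offsets did not (0.198). Bmp6, the ligand made by liver endothelial cells, stood at 4.28, 4.46, 2.75 and 3.58 CPM in KO livers, against 6.08, 7.76, 5.20 and 5.68 CPM in WT livers, lower in every KO liver, with −0.72 (standard error 0.19, adjusted p = 0.495). Of 11 members, 3 had an unadjusted p under 0.05 and were higher and 1 was lower, against 5.18% of all genes higher and 4.56% lower. Id3, a DESeq2 call described above, is 1 of the 3. Members were chosen with earlier results of these data known, so nothing is read from these shares. The median of the list was 0.16, and −0.03 without WT replicate 1.

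Sex-biased liver genes ranged widely between livers of each genotype. Of 20 male-predominant genes, a list that holds Nudt7, 16 were above 0 (median 0.38). Their sum ranged over 21759 to 49346 CPM in KO and 16461 to 49608 CPM in WT livers. Of 20 female-predominant genes, 8 were measured, of which 6 were below 0 (median −0.32). The 2 above 0 were higher in every KO liver than in every WT liver, Lpl (0.63) among them. Over all genes this held for 2.52%. No member was lower in every KO liver than in every WT liver. Cyp17a1, a steroid hydroxylase, stood at 28.9, 7.43, 23.1 and 9.83 CPM in KO livers, against 158, 64.4, 60.9 and 28.7 CPM in WT livers. The groups overlapped by 1 library, KO replicate 1, which was just above WT replicate 4, with −2.16 (standard error 0.67, adjusted p = 0.495). Cyp4a14, an ω-hydroxylase of fatty acids, also ranged widely and stood at 10.96, 39.02, 6.35 and 78.7 CPM in KO livers, against 202, 349, 20.9 and 13.9 CPM in WT livers, with −2.13 (standard error 1.31, adjusted p = 0.623).

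Of 15 circadian clock genes, 8 were above 0 and 7 below, with a median of 0.01. At an unadjusted p under 0.05, 3 were higher, Dbp, Nr1d2 and Per3, and 1 was lower, against 5.18% of all genes higher and 4.56% lower. Dbp, a clock-controlled transcription factor whose mRNA swings strongly over the day, stood at 15.3, 1.09, 10.7 and 1.49 CPM in KO livers, against 0.575, 1.25, 1.01 and 0.533 CPM in WT livers, with 3.07 (standard error 0.99, adjusted p = 0.495). KO replicates 1 and 3 were high and the other KO livers lay near WT. Per3 stood at 9.07, 1.64, 6.90 and 2.78 CPM in KO livers, against 1.64, 2.91, 2.35 and 1.42 CPM in WT livers, with 1.29 (standard error 0.53, adjusted p = 0.497), and Nr1d2 at 71.6, 28.7, 60.8 and 45.3 CPM in KO livers, against 24, 40.7, 28.2 and 22.7 CPM in WT livers, with 0.83 (standard error 0.30, adjusted p = 0.495). The same KO replicates were highest for both. They were also the KO livers with the higher Nudt7 counts, and the part of these livers' clock state in the other results was not tested. Of 14 interferon response genes, 12 were above 0 (median 0.17) and 1 of them, Ifit2, at an unadjusted p under 0.05 (0.40). Over all genes, 5.18% were higher at that p.

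**Figure D4:**
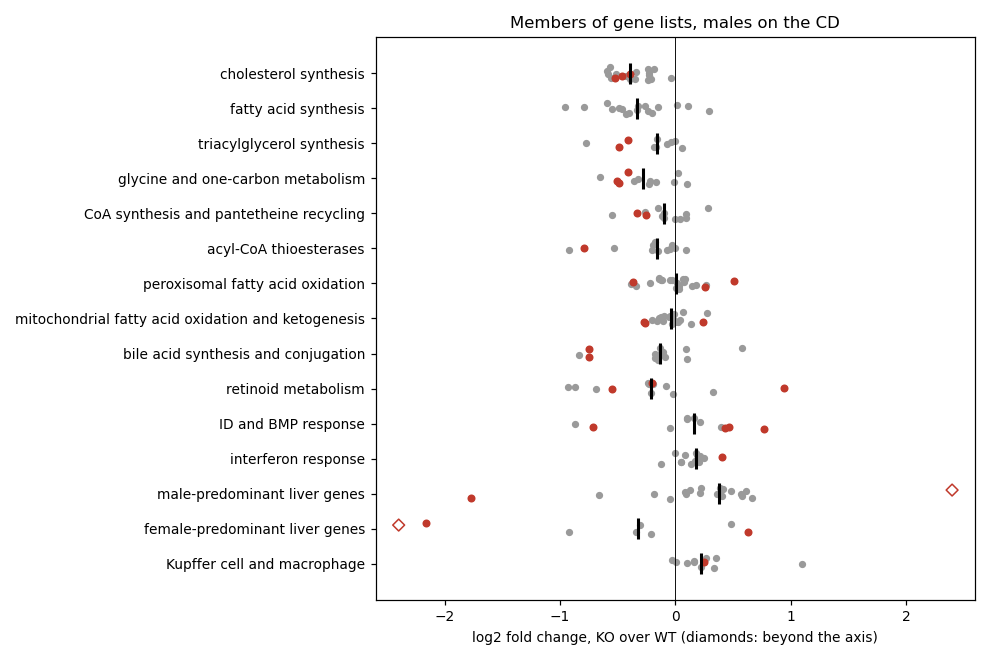
Log2 fold change of KO over WT in males on the CD (horizontal axis) for the measured members of 15 gene lists (rows). Red points have an unadjusted p under 0.05, grey points do not, black bars are list medians and open diamonds mark values beyond the axis, and the medians run from −0.39 for cholesterol synthesis to 0.38 for male-predominant genes.

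Whether the effect of the deletion in males on the CD differed from that in males on the WD was tested directly in the model of all 32 libraries, where 8 of 13539 genes (0.0591%) passed. The values below are CPM scaled over all 32 libraries. Apoa4, an apolipoprotein of triacylglycerol-rich particles, had 655, 548, 754 and 319 CPM in KO and 1229, 909, 899 and 794 CPM in WT males on the CD, and 2884, 1929, 779.6 and 1212 CPM in KO and 506, 695, 529.9 and 379 CPM in WT males on the WD. KO livers were all below WT livers on the CD and all above them on the WD, a log2 difference of −2.44 (standard error 0.42, adjusted p = 0.0149). Dio1, which activates thyroid hormone, had 60.3, 64.5, 75.99 and 69.2 CPM in KO and 81.03, 78.6, 98.9 and 97.8 CPM in WT males on the CD, and 127, 117, 137 and 133 CPM in KO and 107, 103, 90.6 and 77.1 CPM in WT males on the WD. It likewise turned between diets, with a difference of −0.85 (standard error 0.16, adjusted p = 0.0296). Sbk1 had 18.7, 14.6, 12.1 and 14.6 CPM in KO and 49.7, 33.2, 24.2 and 38.2 CPM in WT males on the CD, and 11.96, 18.1, 18.7 and 35.9 CPM in KO and 7.86, 16.1, 14.5 and 12.8 CPM in WT males on the WD. It was lower in all KO livers on the CD and overlapped on the WD, with −1.98 (standard error 0.38, adjusted p = 0.0339).

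The other 5 genes were relatively higher in KO livers on the CD. Adgrf1 had 12.8, 10.2, 17.9 and 13.4 CPM in KO and 1.99, 5.42, 8.005 and 5.13 CPM in WT males on the CD, and 1.36, 0.844, 1.31 and 1.51 CPM in KO and 5.12, 2.58, 3.94 and 2.27 CPM in WT males on the WD. The groups were separate in opposite directions, a difference of 2.85 (standard error 0.56, adjusted p = 0.034). Ugt2b38, a UDP-glucuronosyltransferase, had 3.42, 3.24, 24.7 and 2.73 CPM in KO and 0.953, 0.366, 1.42 and 1.80 CPM in WT males on the CD, and 3.59, 1.53, 3.79 and 2.77 CPM in KO and 10.8, 8.05, 6.92 and 5.95 CPM in WT males on the WD. The groups were separate in opposite directions, KO replicate 3 on the CD stood far above the rest, and the difference was 4.37 (standard error 0.81, adjusted p = 0.0296). Without that library it was 2.92 (adjusted p = 0.054). Abhd17b had 20.5, 19.9, 22.7 and 23.9 CPM in KO and 14.5, 16.8, 14.5 and 16.04 CPM in WT males on the CD, and 14.6, 18.7, 16.5 and 16.1 CPM in KO and 22.1, 20.1, 18.2 and 23.2 CPM in WT males on the WD. It was higher in every KO liver on the CD and overlapped on the WD, with 0.83 (standard error 0.14, adjusted p = 0.0116). With edgeR and length offsets its difference was 0.54 (adjusted p = 0.447).

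Rassf3, of the Ras association domain family, had 82.5, 95.8, 98.1 and 73.9 CPM in KO and 93.1, 89.4, 86.6 and 83.2 CPM in WT males on the CD, and 59.5, 63.5, 60.3 and 55.5 CPM in KO and 87.7, 102, 114 and 113 CPM in WT males on the WD. Here the CD groups overlapped and the WD groups did not, with 0.80 (standard error 0.13, adjusted p = 0.0116). Ogfrl1 had 20.7, 20.99, 28.6 and 26.8 CPM in KO and 17.7, 21.5, 19.4 and 18.8 CPM in WT males on the CD, and 14.8, 18.9, 17 and 14.8 CPM in KO and 24.03, 24.8, 22.9 and 20.6 CPM in WT males on the WD, with 0.82 (standard error 0.16, adjusted p = 0.0339). Rassf3, Abhd17b and Apoa4 passed with each of the 16 libraries left out in turn. The other 5 did not.

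Against females on the CD, 1 of 13539 genes (0.00739%) differed. Pdk2 had 65.9, 57.4, 68.7 and 50.9 CPM in KO and 91.2, 84.8, 97.03 and 86.3 CPM in WT males on the CD, and 121, 91.9, 81.8 and 105 CPM in KO and 74.2, 74.8, 79.3 and 73.3 CPM in WT females on the CD. All KO males were below all WT males and all KO females above all WT females, a difference of −0.97 (standard error 0.17, adjusted p = 0.0429). It did not pass with RLE size factors (adjusted p = 0.0607) or without the female libraries that carried acinar transcripts (0.129). Of the 18 genes that DESeq2 called in males on the CD, 9 of 18 had the same direction in males on the WD and 11 of 17 in females on the CD, 7 in both. DESeq2 with length offsets called 4 of them in males on the WD, where it called 0.398% of all genes. Nudt7, Bco1 and Ciapin1 moved there in the direction seen in males on the CD, and Adgrf1 in the opposite one. In females on the CD, where it called 0.149% of all genes, it called 1 of them, Nudt7. The difference between the effects passed edgeR for 2 of the 18 against males on the WD, Sbk1 and Adgrf1, and for 0 against females on the CD. An unadjusted p under 0.05 for the difference was found for 9 of the 18 in each contrast, against 11.9% of all genes for males on the WD and 10.2% for females on the CD. The 18 were chosen on 8 libraries that both contrasts use, so nothing is read from these counts.

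**Figure D5:**
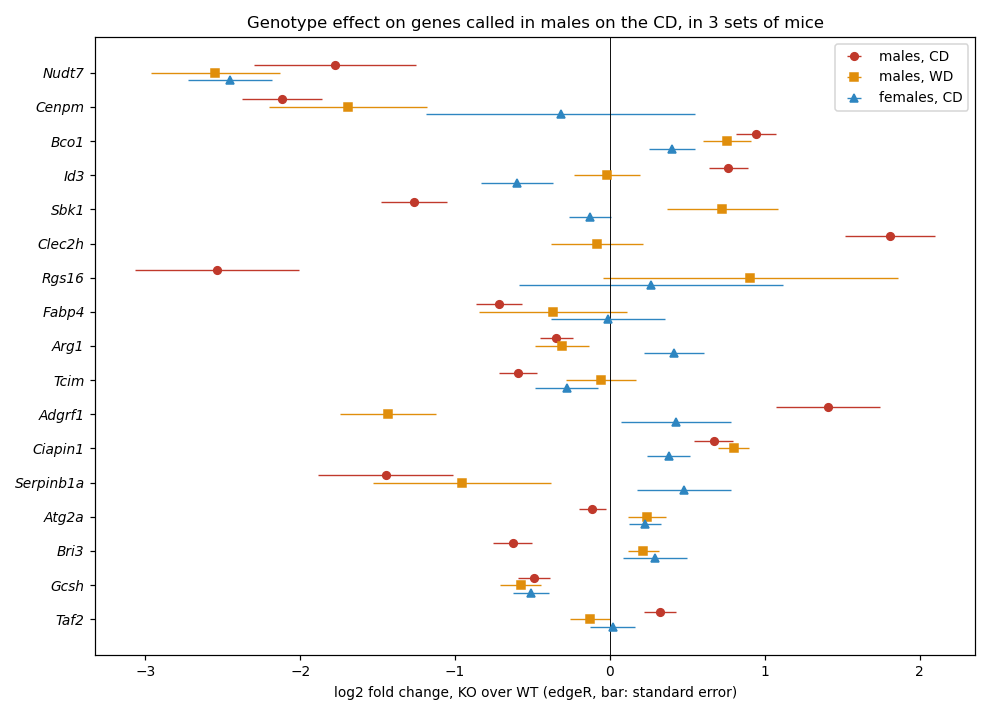
Log2 fold change of KO over WT with edgeR (horizontal axis, bars are standard errors) in males on the CD, males on the WD and females on the CD for 17 of the 18 genes that DESeq2 with length offsets called in males on the CD, without Cyp2b9. Nudt7, Bco1, Ciapin1 and Gcsh keep their side of 0 with an unadjusted p under 0.05 in all 3 sets of mice, whereas Adgrf1 lies at 1.41 in males on the CD and −1.43 in males on the WD.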

How the data were processed

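Liver RNA of 32 mice in 8 groups was sequenced. The deposited files hold, per transcript and mouse, the estimated counts and TPM that the authors obtained with Salmon 1.3.0, with length and effective length, for mouse GRCm38. The authors tested them with DESeq2 1.28.1 and tximport. Here the deposited estimated counts were summed per gene with GENCODE vM21 (115973 of 117135 transcripts matched, 35523 genes; 0.315% to 0.366% of counts in the 8 libraries stayed outside) and rounded. CPM used TMM factors. Genes reaching 10 counts in 4 or more of the 8 libraries were tested with edgeR 4.0.16 (robust quasi-likelihood F test, genotype only) in R 4.3.3, with Benjamini-Hochberg adjustment over all genes and a threshold of 0.05. The 2 contrasts between genotype effects used a model of all 32 libraries. DESeq2 1.42.0, with and without length offsets from the effective lengths, was an alternative, as were RLE factors, other filters, a replicate block, removal of the length trend (lowess, span 0.3) and leaving out each library. Permutation tests were exact and two-sided (SciPy 1.17.1). The procedure was also run on simulated counts drawn independently for each gene, which leaves out expression shifts that genes of a library share.

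Named genes were Nudt7, Nudt8, Nudt19, Fitm2 and Nnt, the edgeR calls, up to 15 calls of DESeq2 with length offsets by smallest p, 10 higher and 10 lower genes of smallest p with separate groups, up to 3 members per list, up to 8 genes within 20 Mb of Nudt7 and up to 8 genes per contrast. List members, lists and tests were chosen with earlier results of these data known. The 43 lists, of 553 genes, were given no test. Other members are named as examples of their list. No 2 of the 8 libraries were duplicates (Spearman within groups 0.980 to 0.990). Each library is 1 mouse. Sequences are from GENCODE vM21 transcripts (GRCm38) and the labels. The strandedness of the counting is not given in the sources used here.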

Additional observations from a re-analysis of the deposited data

Results flagged for a closer look

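Some libraries stood apart from the other 3 of their group by Dixon's test at the 95% level. Of 302 groups of 4 tested for the 151 named genes, 21 (6.95%) did so, where chance gives about 1 in 20, and KO replicate 2 was the library in 7 of them. In KO replicate 2 these were Cenpm at 1.33 CPM (others 0.941 to 0.993), Ptprc, the pan-leukocyte gene, at 13.7 CPM, the Y-linked Ddx3y at 63.0 CPM, Acads of mitochondrial oxidation at 114 CPM, Nudt8 at 8.29 CPM, Ces1g, a carboxylesterase, at 164 CPM and S100a9 of neutrophils at 1.56 CPM. In other KO livers they were Phlpp2 at 7.77 CPM in replicate 1, Ugt2b38 at 23.5 CPM in replicate 3 (others 2.58 to 3.27), and Tm7sf2 at 56.3 CPM, Cd79a of B cells at 1.29 CPM and the acinar Cela1 at 27.9 CPM in replicate 4.

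Among WT livers, Cyp2b9 was at 174 CPM in replicate 1 (others 1.15 to 19.9), and Irs2, the insulin receptor substrate, at 29.9 CPM. Replicate 2 had Bco1 at 8.45 CPM, Tmed5 at 77.6 CPM and Pck1, of gluconeogenesis, at 1131 CPM (others 459.8 to 536). Klb, the FGF receptor partner β-klotho, was at 24.3 CPM in replicate 3. Replicate 4 had Saa1, an acute phase protein, at 741 CPM (others 17.4 to 23.9), Timd4 of Kupffer cells at 10.4 CPM and the peroxin Pex16 at 52.1 CPM.

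The genotype effect differed between diets in males for 8 genes, as a log2 difference of CD minus WD: Rassf3 0.80, Abhd17b 0.83, Apoa4 −2.44, Dio1 −0.85, Ugt2b38 4.37, Ogfrl1 0.82, Sbk1 −1.98 and Adgrf1 2.85. Between males and females on the CD it differed for Pdk2, by −0.97. All 9 passed the edgeR test of the difference itself.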

How the results depend on the processing

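The number of genes called in males on the CD moved with the tool. In place of 1 call, DESeq2 on gene sums gave 32, DESeq2 with length offsets 18, no filter 14, the length trend removed 2, the model of all libraries 2 and edgeR with length offsets 0. RLE factors and filterByExpr gave 1. DESeq2 on gene sums gave Cenpm no adjusted p. Leaving out each library gave 0 to 3 calls, and the genes with an unadjusted p under 0.05 numbered 2099 without KO replicate 2 and 742 without WT replicate 3, against 1197. The replicate block also gave 1 call, but it was Sbk1 (adjusted p = 0.0272) and not Cenpm (0.175), with 827 genes at an unadjusted p under 0.05. The labels number the mice and name no pairs. Deviations from group means correlated by −0.196 to 0.0471 between KO and WT livers of one number and by −0.186 to 0.143 otherwise. So few correlations cannot decide whether mice of one number were paired, by litter or handling. The cause of the differences between settings was not tested.

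The contrast with males on the WD had 8 calls, and 72 with DESeq2 on gene sums, 21 with DESeq2 and length offsets, 5 with edgeR and length offsets, 2 with no filter, 8 with the replicate block and 3 to 33 with a library left out. The contrast with females on the CD had 1 call, and 45 with DESeq2 on gene sums, 47 with DESeq2 and length offsets, 0 with edgeR and length offsets, 0 with no filter, 3 with the replicate block, 0 with RLE factors, 0 without the female libraries with acinar transcripts and 0 to 8 with a library left out. Adgrf1 did not pass (adjusted p up to 0.161) without replicate 1, 3 or 4 of KO males on the CD, 1 or 4 of WT males on the CD, 1, 3 or 4 of KO males on the WD, 1 or 3 of WT males on the WD. Dio1 did not pass (adjusted p up to 0.0796) without replicate 1 or 4 of KO males on the CD, 3 or 4 of WT males on the CD, 1 or 4 of KO males on the WD, 3 or 4 of WT males on the WD. Ogfrl1 did not pass (adjusted p up to 0.106) without replicate 3 or 4 of KO males on the CD, 1, 3 or 4 of WT males on the CD, 1 or 4 of KO males on the WD, 1, 2 or 3 of WT males on the WD. Pdk2 did not pass (adjusted p up to 0.163) without replicate 1, 2 or 4 of KO males on the CD, 1, 2, 3 or 4 of WT males on the CD, 1 or 4 of KO females, 1, 2 or 4 of WT females. Sbk1 did not pass (adjusted p up to 0.106) without replicate 2, 3 or 4 of KO males on the CD, 1 or 4 of WT males on the CD, 4 of KO males on the WD, 1, 3 or 4 of WT males on the WD. Ugt2b38 did not pass (adjusted p up to 0.0967) without replicate 3 of KO males on the CD, 1 or 3 of WT males on the CD, 1 or 4 of KO males on the WD, 1 or 3 of WT males on the WD. No named gene that the main run or an alternative called changed sign between them. In the contrasts this check covered only the genes called there in the main run. Other genes, and runs that gave a gene no adjusted p, were not checked. With 4 mice a group, a gene that did not pass may still differ.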
